A study of Mus musculus with 40 samples.

Results

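The 39 genes described here encode the contractile filaments of skeletal muscle and the proteins that anchor, regulate, and fuel them. They were taken from a list of names, matched to the gene symbols of the deposited normalized table, and all 39 were found there among the 21203 genes tested. Bulk RNAseq of total RNA was performed on rib tissue of wild type mice, described as female and of strain C57BL/6, without treatment other than the resection of a piece of rib. Immature mice were 7 weeks old and mature mice were over 10 months old, and tissue was taken at baseline and at 0, 2, 5, and 14dpr (days post-resection). The labels describe the piece as composite tissue of bone, bone marrow, and intercostal muscle. They place its collection after resection for every sample, while the paper defines baseline as before resection, a definition followed here. Each group held n = 4 libraries except mature 5dpr, where n = 3, since replicate 2 of that group has no column in the deposited tables. Library totals lay between 6057708 and 21536887 counts (median 9087312). Levels are CPM scaled by TMM factors, and libraries are given in the order of their replicate numbers.

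In a muscle fibre, thick filaments of myosin pull on thin filaments of actin, and calcium released from the sarcoplasmic reticulum switches this on through troponin and tropomyosin. Most of these proteins exist as isoforms from separate genes, of which some predominate in fast, quickly tiring fibres and others in slow, fatigue-resistant fibres, and several of the slow isoforms also serve the heart. Rib resection passes through intercostal muscle, and injured muscle regenerates from satellite cells that fuse into new fibres expressing embryonic and neonatal isoforms before the adult ones. By fibre class, 14 of the 39 genes were listed as fast, 11 as slow, and 14 as shared or not assigned.

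The label of the group was checked against the data. At immature baseline, summed levels of the 39 genes were 110816, 125486, 131205, and 102123 CPM in the 4 libraries, with a mean of 11.8% ± 0.894 (SD, n = 4) of the raw counts. Levels were also taken per kilobase of merged exons, the union of all annotated exons of a gene, and the ranking depends on that length. On this scale Acta1, the skeletal actin of the thin filament, was highest of the 39 with a mean level of 8127 CPM per kb. Tnnc2, the fast calcium-binding troponin C, was next with 4414. Tnni1, the slow inhibitory troponin I, was lowest with 17.9 CPM per kb. Slow genes made up a small part of the total, and 2816 CPM of the summed level came from the 11 of them against 52439 from the 14 fast genes. Heart muscle also expresses genes of the list, among them Myh7, Myl2, Myl3, Tnnc1, Casq2, Atp2a2, and Des. Of 7 cardiac markers, Nppa and Nppb were not in the table. Tpm3, listed as the slow tropomyosin, and Atp2a2, listed as the slow calcium pump, are also made outside muscle, and their levels are not specific to slow fibres. In whole pieces of tissue, fewer muscle fibres and less RNA per fibre cannot be told apart.

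Promoter sequences were read to see what the genes share beyond the list. The RefSeq table for GRCm38.p6 held 31 of the 39 genes with 37 start sites, each with 250 bases before and 50 after the start. Motifs were searched only in the 250 bases before each start, called windows here. On both strands, the E-box CANNTG, the general site of myogenic bHLH factors, matched in 31 of 37 windows (83.8%), against 66.2% of all 32851 windows of that length. Its form CAGCTG, whose matches are all CANNTG matches too, was found in 16 of 37 (43.2%) against 13.0%. The MEF2 motif was found in 6 of 37 (16.2%) against 2.92%, and the CArG box of SRF in 6 of 37 (16.2%) against 1.47%. Windows of 1 gene can overlap and hold the same site, as those of Ldb3 do. Counted once per gene, CANNTG was found in 27 of 31 (87.1%) against 69.3%, and CAGCTG in 15 (48.4%) against 14.7%. MEF2 was found in 6 of the 31 (19.4%) against 3.42%, and the CArG box in 5 (16.1%) against 1.62%. These matches are descriptions of the letters and were not tested. Printed here, as a fast and a slow myosin gene, are the 250 bases upstream of the start of Myh4, the IIb myosin of the fastest fibres (chr11:67237562-67237811, plus strand), and of Myh7, the slow myosin (chr14:54994550-54994799, minus strand, the downstream one of its 2 start sites). Capitals mark matches of these 4 motifs.
Myh4: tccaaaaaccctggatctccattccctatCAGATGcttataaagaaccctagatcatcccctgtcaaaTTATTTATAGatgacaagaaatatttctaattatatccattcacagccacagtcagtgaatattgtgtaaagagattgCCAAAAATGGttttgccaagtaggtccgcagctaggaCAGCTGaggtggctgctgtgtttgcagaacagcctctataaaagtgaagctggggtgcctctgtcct
Myh7: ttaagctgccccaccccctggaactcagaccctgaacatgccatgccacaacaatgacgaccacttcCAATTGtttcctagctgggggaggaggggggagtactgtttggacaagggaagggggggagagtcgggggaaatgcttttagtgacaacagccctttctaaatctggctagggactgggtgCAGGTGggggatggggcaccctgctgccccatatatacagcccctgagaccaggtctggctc
Myh4 held matches of all 4 motifs. The Myh7 stretch held 2 E-boxes, neither of the narrower form. These stretches are examples and do not stand for fast and slow genes. Fast Myh2 held no match of any motif, and fast Myh1 held only a MEF2 match. Slow Casq2 and Myoz2 held MEF2 matches, and slow Myl3 held a CArG box.

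The summed level of the 39 genes had its highest group mean at 0dpr at both ages and its lowest at 14dpr in immature and 2dpr in mature mice, and differences between stages in it were not tested. In immature libraries it was 110816, 125486, 131205, and 102123 CPM at baseline, 140137, 171270.0, 259014, and 192411 at 0dpr, 33094, 23491, 36426, and 27325 at 2dpr, 50051, 37808, 49832, and 41443 at 5dpr, and 26469, 20047, 33119.6, and 31692 at 14dpr. The 4 libraries of 0dpr lay above all of baseline, and those of 2, 5, and 14dpr lay below all of baseline. Mature values were 57488, 55606, 101227, and 107372 at baseline, 195805, 147942, 294047, and 173705 at 0dpr, 20052, 22179, 27038, and 37893 at 2dpr, 28399, 44796, and 61264 at 5dpr, and 26022, 45535, 39315, and 26282 at 14dpr. Replicates 1 and 2 of mature baseline were the low ones of their group, and both lay below the highest 5dpr library. As a share of raw counts without TMM scaling, group means were 11.8%, 16.6%, 3.16%, 4.58%, and 2.87% in immature and 8.50%, 17.3%, 2.83%, 4.49%, and 3.51% in mature libraries at the 5 stages. The mean summed level at 2dpr was 6.34-fold lower than at 0dpr in immature and 7.57-fold lower in mature mice, and by raw share 5.27-fold and 6.12-fold lower.

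**Figure D1:**
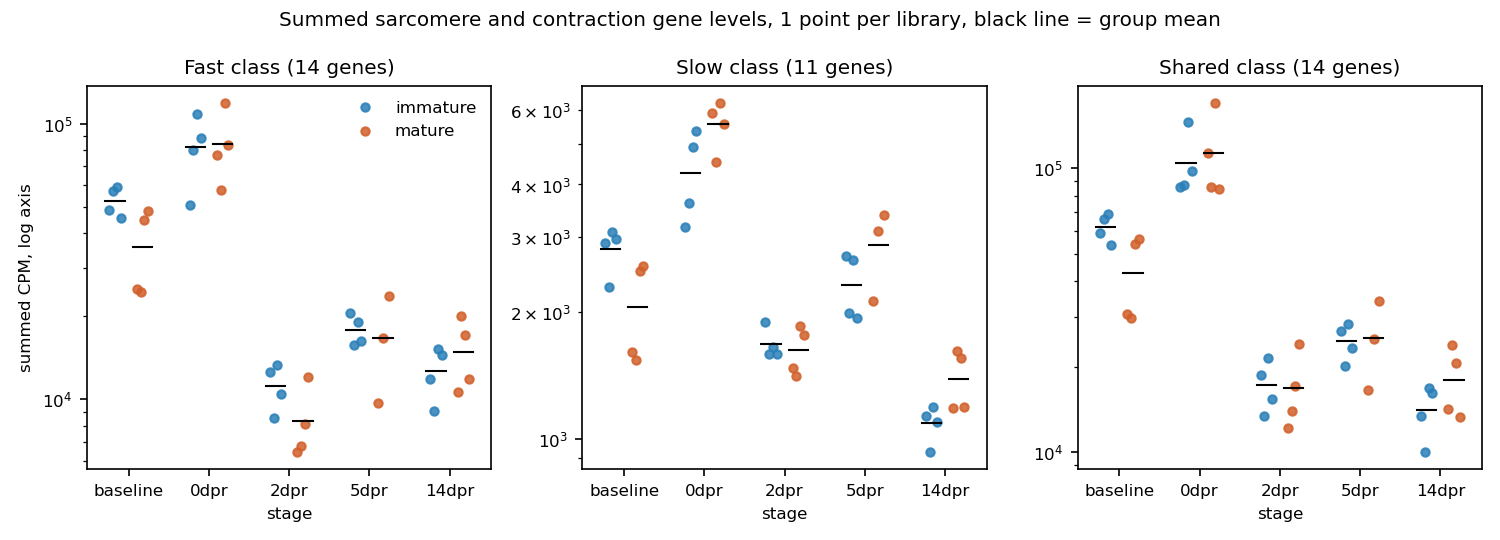
Summed CPM of the fast (14 genes), slow (11 genes), and shared (14 genes) classes by stage, on log axes, with 1 point per library and a black line at each group mean. In each class the 2dpr libraries sit below all 0dpr libraries of the same age, and slow levels at 5dpr have means of 2319 (immature) and 2871 CPM (mature), against 1088 and 1385 at 14dpr.

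The plot of summed levels by class shows that the classes did not keep 1 ratio. The summed fast level was 19.0 ± 4.18 (SD, n = 4) times the summed slow level at immature baseline and 19.2 ± 3.39 at 0dpr. It was 6.65 ± 1.10 at 2dpr, 7.78 ± 0.522 at 5dpr, and 11.5 ± 1.67 at 14dpr. In mature mice the same ratio was 17.1, 14.9, 5.12, 5.66, and 10.6 at the 5 stages. At both ages, every 2 and 5dpr library had a lower ratio than every 14dpr library. Tpm3 and Atp2a2, which are also made outside muscle, held 18.5% of the summed slow level at immature 0dpr and 51.4% at 2dpr, and 18.7% and 55.8% in mature mice. Without these 2, an alternative chosen after seeing the data, the ratio had means of 25.1, 23.6, 13.8, 11.7, and 24.2 in immature and 23.4, 18.3, 11.8, 8.002, and 20.03 in mature mice at the 5 stages. The drop from 0 to 2dpr was smaller that way, and every 2 and 5dpr library still lay below every 14dpr library. Mybpc1 stayed in the slow class, and at baseline and 0dpr it was the most abundant gene of that class at both ages. How far its level follows slow fibres was not tested.

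The piece also holds other tissues, and summed levels of their markers are given here in every library, to stand beside the comparisons of the 39 genes. Leukocyte markers (7 of 7, S100a8 most abundant) summed to 3380.3, 2196, 2461, 2247 CPM at baseline, 759, 2139, 426, 904 at 0dpr, 2119, 2398, 2541, 2669 at 2dpr, 1786, 1796, 1894, 2329 at 5dpr, and 1725, 1806, 1458, 1669 at 14dpr in immature libraries, and to 3109, 3363, 6257, 2419 at baseline, 696, 2659.7, 868, 1345 at 0dpr, 3262, 2385, 3966, 3360.5 at 2dpr, 1805, 1742, 1404 at 5dpr, and 1411, 1845, 1347, 2556 at 14dpr in mature ones. Erythroid markers (6 of 6, Hba-a1 most abundant) summed to 9245, 7013, 7441, 5458 CPM at baseline, 1165, 5919.7, 4721, 7792 at 0dpr, 1361, 771, 1233, 1589 at 2dpr, 905, 1174, 1071, 1516 at 5dpr, and 1364, 2639, 880.4, 1383 at 14dpr in immature libraries, and to 8023, 7278, 9385, 10486 at baseline, 5365, 10020.1, 5105, 8217 at 0dpr, 1003, 349.9, 1346, 686 at 2dpr, 1657, 722, 863 at 5dpr, and 209, 1371, 707, 772 at 14dpr in mature ones. Bone markers (6 of 6, Ibsp or Bglap most abundant) summed to 660.0, 1101, 1179, 1080.4 CPM at baseline, 564, 778, 204, 559 at 0dpr, 193, 107, 187, 360.4 at 2dpr, 269.9, 408, 585, 488 at 5dpr, and 1144, 1856, 954, 2216 at 14dpr in immature libraries, and to 883, 918, 758, 727 at baseline, 328, 339, 243, 371 at 0dpr, 178, 142, 271, 24.7 at 2dpr, 113, 225, 138 at 5dpr, and 416, 729, 886, 559 at 14dpr in mature ones. Cartilage markers (3 of 3, Acan or Col2a1 most abundant) summed to 40.1, 34.1, 75.6, 69.0 CPM at baseline, 145, 51.0, 29.2, 122 at 0dpr, 111, 25.3, 57.1, 47.9 at 2dpr, 94.9, 174, 289.8, 426 at 5dpr, and 2266, 335, 1265, 764 at 14dpr in immature libraries, and to 57.4, 72.2, 41.8, 42.7 at baseline, 62.9, 24.1, 10.5, 23.2 at 0dpr, 13.7, 99.1, 50.4, 5.46 at 2dpr, 98.7, 29.4, 34.8 at 5dpr, and 1109, 456, 2585, 113 at 14dpr in mature ones. Fibroblast and matrix markers (6 of 6, Col1a2, Col1a1, or Col3a1 most abundant) summed to 15449, 22176, 30526, 27648 CPM at baseline, 27931, 23833, 9849.9, 22058 at 0dpr, 21502, 19416, 21386, 25916 at 2dpr, 38759.6, 56082, 59022, 51281 at 5dpr, and 62973, 60688, 64429, 72337 at 14dpr in immature libraries, and to 20544, 20906, 10372, 13314 at baseline, 10807, 7238, 7692, 7199 at 0dpr, 10969.6, 13053, 10007, 8978 at 2dpr, 37828, 43109.6, 39209.7 at 5dpr, and 77890.5, 56578, 63089, 51915 at 14dpr in mature ones. Fat markers (4 of 4, Fabp4 most abundant) summed to 855, 912, 696, 469 CPM at baseline, 1382, 1130.0, 2034, 1615 at 0dpr, 482, 472, 470.0, 645 at 2dpr, 481, 466, 358, 454 at 5dpr, and 388, 286, 286, 532 at 14dpr in immature libraries, and to 857, 668, 709, 1261 at baseline, 1914, 1363, 1233, 1128 at 0dpr, 717, 682, 489.9, 557 at 2dpr, 1351, 552, 453 at 5dpr, and 265, 509.6, 379, 364 at 14dpr in mature ones. Endothelial markers (3 of 3, Pecam1 most abundant) summed to 279.6, 261, 256, 248 CPM at baseline, 393, 395, 524, 396 at 0dpr, 324, 348, 365, 325 at 2dpr, 369, 355, 477, 396 at 5dpr, and 430.4, 445, 525, 434 at 14dpr in immature libraries, and to 243, 241, 260.5, 258 at baseline, 465, 347, 423, 357 at 0dpr, 437, 439.8, 329.9, 389 at 2dpr, 373, 410.4, 390.5 at 5dpr, and 500.1, 424, 502, 471 at 14dpr in mature ones. Smooth muscle markers (6 of 6, Acta2 most abundant) summed to 266, 264, 319, 248 CPM at baseline, 329.6, 355, 529.8, 391 at 0dpr, 417, 378, 348, 505 at 2dpr, 730.1, 679, 787, 584 at 5dpr, and 333, 287, 413, 321 at 14dpr in immature libraries, and to 206, 189, 276, 254 at baseline, 353, 308, 540.3, 501 at 0dpr, 384, 417, 304, 186 at 2dpr, 767, 789.7, 982 at 5dpr, and 508, 395, 347, 334 at 14dpr in mature ones. Cardiac markers (5 of 7, Sbk3, Myh6, Myl7, Ryr2, or Tnni3 most abundant) summed to 6.40, 8.76, 6.92, 7.66 CPM at baseline, 13.4, 4.81, 10.8, 7.09 at 0dpr, 5.65, 2.36, 3.35, 5.11 at 2dpr, 1.90, 3.00, 3.22, 2.78 at 5dpr, and 2.56, 2.74, 3.58, 3.08 at 14dpr in immature libraries, and to 4.93, 5.70, 6.11, 6.51 at baseline, 28.6, 8.86, 9.64, 5.28 at 0dpr, 3.22, 2.34, 0, 4.16 at 2dpr, 2.76, 3.35, 3.52 at 5dpr, and 2.89, 2.46, 2.67, 1.97 at 14dpr in mature ones. Mature 2dpr replicate 3 had 0 reads of all 5 cardiac markers, Myl7 was at 0 in 1 or 2 libraries of 6 other groups, Sbk3 in 1 of mature 0dpr, Sost in 1 each of mature 2 and 5dpr, and no marker in a whole group. Where the markers are counted, libraries left out are given by stage and replicate (r1 to r6), and unadjusted counts are of p under 0.05.

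The first comparison asks what the tissue showed right after resection, at 0dpr against baseline. In mature mice, 38 of the 39 genes rose, in edgeR's quasi-likelihood test with adjusted p under 0.05, where 11.9% of all 21203 genes rose, and 0 fell by edgeR and DESeq2, where 10.6% of all genes fell. The remaining gene was Tcap, the titin cap of the Z disc, with a log2 fold change of 0.74 (SE 0.32, adjusted p 0.0908), which passed without baseline replicate 4 (0.96) and with replicate number as a block (0.84). All 39 had an unadjusted p under 0.05, against 7320 of all 21203 genes. The median log2 fold change was 1.28, against -0.02 over all genes. The largest increases were of Tnnc1, the slow and cardiac troponin C, by 2.28 (SE 0.31, adjusted p 2.06e-05), and of Myl3, the slow essential light chain, by 2.22 (SE 0.47, adjusted p 9.2e-04). The smallest increases past the threshold were of Tpm3 with 0.40 (SE 0.12, adjusted p 0.0153) and of Myoz2, the calsarcin of slow fibres, with 0.95 (SE 0.23, adjusted p 0.00322). Myl3 was 24.8, 14.4, 24.5, and 37.6 CPM at mature baseline and 153, 83.1, 114, and 120.3 at 0dpr. Each 0dpr library was above all baseline libraries. Because replicates 1 and 2 of mature baseline were low, the test was repeated without both, an alternative chosen after seeing the data. With 2 baseline libraries left, 8 genes rose, the median log2 fold change of the 39 was 0.92, and 33 had an unadjusted p under 0.05.

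Of the reference genes, Myh7 rose by 2.17, Ttn, the giant spring between Z disc and M band, by 1.59, and Myh4 by 1.30. Myh1 and Myh2, the IIx and IIa fast myosins, rose by 1.26 and 1.18, Ckm, the muscle creatine kinase, by 1.22, and Acta1 by 1.19 on the log2 scale, with adjusted p from 2.4e-04 to 0.0119. Libraries of the stages overlapped for Acta1 and Ckm only among these 7. Without mature 0dpr replicate 3, or without baseline replicate 1 or 2, the Ckm increase missed the threshold, with log2 fold changes of 1.04, 1.06, and 1.05. Tpm3 missed it without 0dpr replicate 2 or 4 or without baseline replicate 1 or 4, at 0.35, 0.31, 0.35, and 0.35.

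In immature mice, 6 of the 39 genes rose from baseline to 0dpr, against 5.98% of all genes, and 0 fell by edgeR and DESeq2, against 4.66%. They were Casq2, the slow and cardiac calcium store protein, with 0.98 (SE 0.26, adjusted p 0.0169), Neb, the thin filament ruler nebulin, with 0.94 (SE 0.29, adjusted p 0.035), Casq1, the fast calcium store protein, Mybpc1, the slow myosin binding protein C, Tpm1, a tropomyosin, with 0.83 (SE 0.26, adjusted p 0.0351), and Ldb3, the Z disc protein ZASP, with 0.68 (SE 0.23, adjusted p 0.0472). Unadjusted p was under 0.05 for 19 genes, against 5490 of all 21203, and DESeq2 called 14 of the 39, all higher. The median log2 fold change was 0.60, with 38 of 39 positive. Casq2 was 49.6, 43.8, 61.1, and 43.2 CPM at baseline and 74.3, 73.6, 151, and 88.6 at 0dpr, with all 0dpr libraries above all baseline libraries. None of the reference genes passed the threshold, at 0.93 for Ttn, 0.84 for Myh4, 0.78 for Myh1, 0.70 for Myh2, 0.59 for Ckm, 0.56 for Myh7, and 0.53 for Acta1, and DESeq2 called Ttn, Myh4, and Myh1. Ttn passed without immature 0dpr replicate 2 (1.00) or 4 (1.10). The count rested on single libraries. Without immature baseline replicate 3 or 6, or without 0dpr replicate 3, 0 genes were called, and without baseline replicate 2 or 4, 1 and 2 were. With library totals in place of TMM 1 was called, with replicate number as a block 2, and in a fit of the compared libraries alone 0. Leaving out any 1 of these libraries lost the call: for Casq2 baseline replicates 3 and 6 (0.88 and 0.92) or 0dpr replicate 3 (0.71), for Neb baseline replicates 2, 3, 4, and 6 (0.88, 0.97, 0.94, and 0.88) or 0dpr replicates 1 and 3 (0.96 and 0.72), for Tpm1 baseline replicates 2, 3, 4, and 6 (0.79, 0.81, 0.87, and 0.77) or 0dpr replicates 3 and 4 (0.71 and 0.75), for Ldb3 baseline replicates 2, 3, 4, and 6 (0.69, 0.68, 0.68, and 0.60) or 0dpr replicates 1, 2, and 3 (0.72, 0.67, and 0.56), for Casq1 baseline replicates 2, 3, 4, and 6 (0.77, 0.84, 0.92, and 0.78) or 0dpr replicates 2, 3, and 4 (0.81, 0.71, and 0.83), and for Mybpc1 baseline replicates 2, 3, and 6 (0.82, 0.73, and 0.83) or 0dpr replicate 3 (0.61). That mature mice had more calls does not show a difference between the ages, and the test of that difference, given with the age comparisons, called 0 of the 39 in edgeR.

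Between baseline and 0dpr markers of other tissues moved too, and their part in the increases of the 38 and 6 called genes was not tested. All 3 endothelial markers rose at each age. Of 7 leukocyte markers, 2 fell in immature (0 without 0dpr r3, 5 without 0dpr r2), and 6 fell in mature mice (3 without 0dpr r1 or r3). Of 6 bone markers, 1 fell in immature (0 without baseline r2, r3, r4 or r6 or 0dpr r3 or r4, 2 without 0dpr r1), and 3 fell in mature mice (0 without 0dpr r3, 1 without baseline r2 or 0dpr r1). Of 6 matrix markers, 0 passed in immature (0 unadjusted, 0 by DESeq2), and 1 rose and 2 fell in mature mice (1 without baseline r1 or r2 or 0dpr r3). Of 4 fat markers, 3 rose in immature (0 without baseline r6 or 0dpr r3, 1 without baseline r2 or r4), and 1 rose in mature mice (0 without baseline r1, r2 or r3 or 0dpr r1 or r2). Of 6 smooth muscle markers, 1 rose in immature (0 without baseline r3 or r6 or 0dpr r3, 2 without baseline r4, 3 without 0dpr r2), and 4 rose in mature mice. No call at either age was made by edgeR among erythroid markers (2 and 0 unadjusted, 0 and 0 by DESeq2, immature 1 without 0dpr r2), cardiac markers (2 and 3 unadjusted, 1 and 2 by DESeq2, mature 1 without 0dpr r2 or r3, 2 without 0dpr r4), and cartilage markers (0 unadjusted, 0 by DESeq2).

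From 0 to 2dpr 38 of the 39 contractile genes fell at each age, and Tpm3 rose. Over all genes, 22.2% fell and 21.8% rose in immature mice, and 24.9% fell and 22.7% rose in mature mice. Median log2 fold changes were -2.62 and -2.96, against -0.04 and -0.05 over all genes. Leaving out any 1 library kept 37 of the 39 calls in immature and all 39 in mature mice.

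In the thick filament, Myh4 was 10792, 19583, 26869, and 21001 CPM at immature 0dpr and 2496, 1685, 2707, and 2056 at 2dpr. The mature libraries gave 11906, 12038, 27796, and 19721 at 0dpr and 1521, 1645, 1904, and 3140.2 at 2dpr. The 2dpr libraries were all far below those of 0dpr, and Myh4 fell by 3.13 (SE 0.36, adjusted p 6.11e-09) and by 3.12 (SE 0.36, adjusted p 4.29e-09) on the log2 scale. Myh2 was 8796, 5411, 8771, and 4637 CPM at mature 0dpr and 296, 412, 731, and 319 at 2dpr, the largest change of a myosin, a log2 fold change of -3.97 (SE 0.33, adjusted p 4.96e-12). In immature mice Myh2 changed by -2.57, from 4064, 3876, 7723, and 4679.9 to 882, 465, 1111, and 965 CPM, again without overlap. Myh1 changed by -2.77 and -3.55, and slow Myh7 by -1.89 and -3.10. The light chains Mylpf and Myl1 (fast) and Myl2 and Myl3 (slow), which clasp the myosin lever arm, and the binding proteins Mybpc1 and Mybpc2 fell by between 2.33 and 2.87 in immature and between 2.64 and 3.61 in mature mice.

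In the thin filament, Acta1 was 11304, 16333, 21813, and 22729 CPM at immature 0dpr and 5157, 3494, 3581, and 3171 at 2dpr, a log2 fold change of -2.23 (SE 0.31, adjusted p 3.12e-07). In mature mice it was 19797, 12120.1, 24213, and 16152 and 2237, 2508, 2385, and 5357, a change of -2.53 (SE 0.31, adjusted p 2.4e-08). The lowest 0dpr library was above the highest 2dpr library at both ages. The fast troponins Tnnt3, Tnni2, and Tnnc2, which bind tropomyosin, inhibit myosin binding, and sense calcium, changed by -2.82, -2.74, and -2.88 in immature and -3.24, -3.32, and -3.24 in mature mice. Their slow counterparts Tnnt1, Tnni1, and Tnnc1 changed by -1.44, -1.12, and -1.59, and by -2.05, -1.85, and -2.17. The immature Tnni1 call was lost without 0dpr replicate 4 (-0.73). Tpm1 and Tpm2 fell by 2.78 and 2.40 in immature and by 2.99 and 2.83 in mature mice, and Neb by 2.64 and 2.76. Tpm3 went the other way, with 207, 277, 207, and 348 CPM at immature 0dpr and 487, 513, 436, and 450.2 at 2dpr. In mature mice, values were 298, 329, 331, and 354 and 531, 522, 568, and 447. All 2dpr libraries were above all 0dpr libraries, with log2 fold changes of 0.86 (SE 0.12, adjusted p 4.17e-07) and 0.66 (SE 0.12, adjusted p 2.66e-05).

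At the Z disc, which anchors the thin filaments, the cross-linkers Actn2 and Actn3 fell by 1.92 and 2.73 in immature and by 2.57 and 2.85 in mature mice. Tcap changed by -2.16 in immature and -3.94 in mature mice, Myoz1 (fast) by -2.95 and -3.52, Myoz2 by -1.92 and -2.15, and Ldb3 by -2.43 and -2.99. Des, the intermediate filament desmin that ties Z discs together, changed less, by -1.05 and -0.88. The mature Des call was lost in a fit of the compared libraries alone (-0.86). Ttn was 51454, 38890.5, 79027, and 36118 CPM at immature 0dpr and 6329, 5036, 11014, and 6719 at 2dpr, a log2 fold change of -2.82 (SE 0.34, adjusted p 2.04e-08). In mature mice it changed by -2.81 (SE 0.34, adjusted p 1.51e-08). The M band proteins Myom1 and Myom2, which join thick filaments at their centre, fell by 2.69 and 2.35, and by 3.11 and 2.87.

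Among calcium handling genes, Pvalb, the calcium buffer of fast fibres, was 1497, 3731, 4483, and 3915 CPM at immature 0dpr and 296, 194, 282, and 264 at 2dpr. Values in mature libraries were 2129, 1791, 3457, and 4031 and 111, 99.0, 132, and 209.9. No library overlapped, and Pvalb had the largest decrease of the 39 genes at both ages, with -3.72 (SE 0.39, adjusted p 1.35e-09) and -4.37 (SE 0.41, adjusted p 4.69e-11). Atp2a2 had the smallest decrease in immature mice. It was 461, 473, 501, and 683 CPM at 0dpr and 383, 405, 399, and 385 at 2dpr, which lie close but do not overlap, with a log2 fold change of -0.43 (SE 0.16, adjusted p 0.0301). It missed the threshold without immature 0dpr replicate 4 (-0.31) or without 2dpr replicate 1, 3, or 4 (-0.42, -0.44, and -0.42), and with library totals in place of TMM (-0.18), without a filter (-0.38), and in a fit of the compared libraries alone (-0.40). In mature mice it changed by -0.86 (SE 0.16, adjusted p 3.51e-05). The fast pump Atp2a1 changed by -3.03 and -3.71, the release channel Ryr1 by -2.59 and -2.96, its voltage sensor Cacna1s by -2.77 and -3.20, Casq1 by -3.00 and -3.66, and Casq2 by -1.11 and -1.45. Ckm, which recharges ATP beside the filaments, was 3909.9, 8549, 9398, and 11589 CPM at immature 0dpr and 1564, 976, 1152, and 936 at 2dpr. It changed by -2.85 (SE 0.38, adjusted p 1.16e-07) in immature and -3.23 (SE 0.38, adjusted p 9.86e-09) in mature mice.

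**Figure D2:**
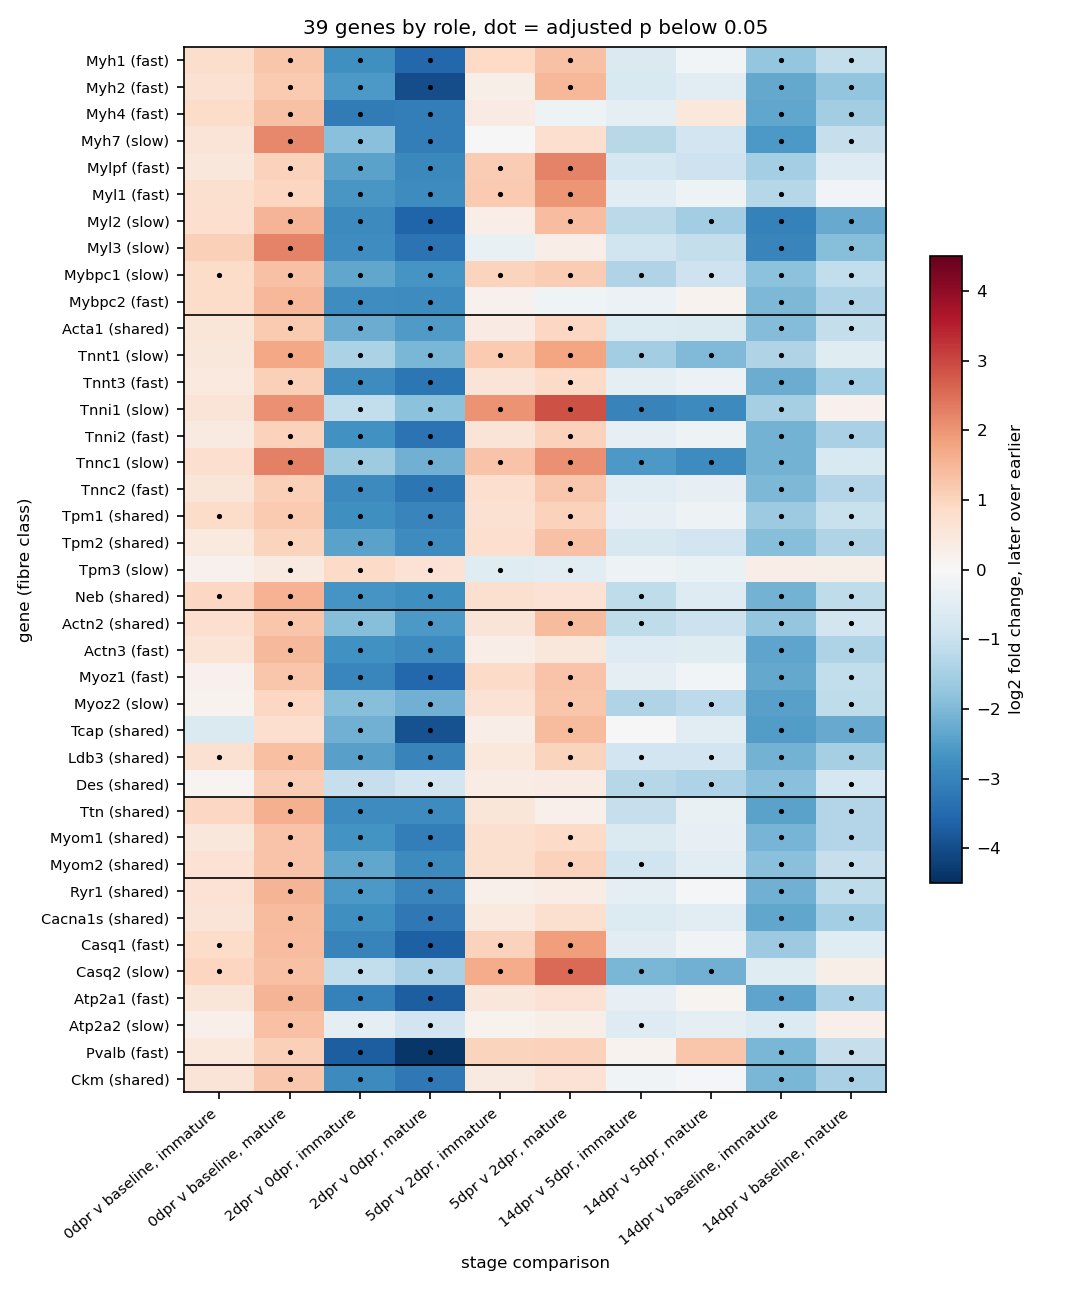
Log2 fold change (colour) of each of the 39 genes, grouped by role, in 10 stage comparisons, with a dot where the adjusted p was under 0.05. The 2 columns of 2dpr against 0dpr are blue for every gene except Tpm3, and the dotted genes of 14dpr against 5dpr are mostly slow ones.

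By fibre class, the median log2 fold change from 0 to 2dpr was -2.80 over fast, -1.59 over slow, and -2.51 over shared genes in immature mice. The mature medians were -3.28, -2.15, and -2.92. All 14 fast and all 14 shared genes fell at both ages, and 10 of the 11 slow genes did. The heat map of fold changes by role shows these classes side by side over all stage comparisons. Comparisons that follow one another share the libraries of the stage between them, so each has its own values.

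Markers of other tissues moved from 0 to 2dpr too, and their part in the decreases of the 38 genes and the increase of Tpm3 was not tested. Of 7 leukocyte markers, 5 rose at each age; of 6 matrix markers, 1 rose and 1 fell in immature, and 3 rose and 1 fell in mature mice; all 4 fat markers fell at each age; of 6 smooth muscle markers, 1 rose and 3 fell in immature, and 4 fell in mature mice; of 5 cardiac markers, 2 fell in immature, and 3 fell in mature mice. Of 6 erythroid markers, 5 fell in immature (3 without 0dpr r2 or r4 or 2dpr r1, r2 or r3), and 6 fell in mature mice; of 6 bone markers, 2 fell in immature (1 without 0dpr r2), and 5 fell in mature mice. Of 3 cartilage markers, 0 passed in immature (1 unadjusted, 0 by DESeq2), and 1 rose in mature mice (0 without 0dpr r2, r3 or r4 or 2dpr r3, 2 without 2dpr r4). Of 3 endothelial markers, 1 fell in immature, and 1 rose and 1 fell in mature mice (1 without 0dpr r1 or r2 or 2dpr r1 or r2).

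The next comparison was 5dpr against 2dpr. In mature mice 24 of the 39 genes rose, against 8.16% of all genes, and 1 fell, against 6.38%. In immature mice 8 rose, against 4.37%, and 1 fell, against 3.67%. Tpm3 was the gene that fell, by 0.54 and 0.47, with adjusted p of 0.00292 and 0.0128 in immature and mature mice. In mature mice it missed the threshold without 5dpr replicate 1 (-0.44) or 4 (-0.42). Median log2 fold changes of the 39 were 0.57 and 1.04, against 0.01 and 0.06 over all genes. Unadjusted p was under 0.05 for 23 and 29 genes, against 4211 and 5841 of all 21203. In immature mice, against the 9, a total of 17 were called by DESeq2 and 21 in a fit of the compared libraries alone. In mature mice, against the 25, such a fit called 13, and 12 were called without mature 5dpr replicate 4.

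The largest increases were of slow genes, though not all slow genes rose, as Tpm3 fell. Tnni1 was 62.9, 37.4, 37.1, and 43.0 CPM at immature 2dpr and 203, 172, 241, and 118 at 5dpr, a log2 fold change of 2.02 (SE 0.32, adjusted p 6.89e-05). Mature libraries had 35.9, 42.2, 21.3, and 67.4 at 2dpr and 212, 332, and 362 at 5dpr, a change of 2.85 (SE 0.34, adjusted p 3.43e-07). Every 5dpr library was above every 2dpr library and every baseline library of its age. Casq2 was 45.4, 36.7, 50.3, and 47.4 CPM at immature 2dpr and 160.1, 157, 175, and 79.0 at 5dpr, a change of 1.67 (SE 0.27, adjusted p 7.24e-05). Mature values were 32.7, 33.8, 60.7, and 25.7 and 136, 240.4, and 287, a change of 2.54 (SE 0.29, adjusted p 8.67e-08). Immature 5dpr replicate 5 was the low one of its group for both genes, and the stages did not overlap. Tnnc1 rose too, and Tnnt1 rose by 1.18 and 1.76. The smallest increases past the threshold were of Mybpc1 with 1.00 (SE 0.25, adjusted p 0.00829) and Casq1 with 1.04 in immature mice, and of Tnnt3 with 0.87 (SE 0.30, adjusted p 0.046) and Myom1 with 0.87 in mature mice. Immature Casq1 missed the threshold without 2dpr replicate 2 (0.90) or 5dpr replicate 2 (0.94), and mature Myom1 without 2dpr replicates 1 and 2 (0.76 and 0.76) or 5dpr replicates 3 and 4 (0.86 and 0.57). Tnnt3 missed it without any 1 of mature 2dpr replicates 1, 2, and 3 (0.79, 0.77, and 0.79) and 5dpr replicates 3 and 4 (0.91 and 0.55).

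Increases of fast genes were smaller at both ages than those of Tnni1 and Casq2. Mylpf, the fast regulatory light chain, was 1081, 835, 1525, and 878 CPM at immature 2dpr and 2776, 2417, 2358, and 1939.6 at 5dpr, a log2 fold change of 1.14 (SE 0.29, adjusted p 0.00922). The mature libraries gave 488, 541, 606, and 813 and 1719, 2993, and 3847, a change of 2.22 (SE 0.31, adjusted p 3.91e-06). The stages did not overlap at either age. Myl1 rose by 1.17 and 1.99. Of the myosins, Myh1 changed by 0.90 (not past the threshold) and 1.33, Myh2 by 0.28 (not past) and 1.51, Myh4 by 0.38 and -0.22 (neither past), and Myh7 by 0.01 and 0.76 (neither past). Myh1 passed it in immature mice with 5 alternative settings, among them DESeq2 (0.92), and missed it in mature mice without 5dpr replicate 4 (0.85). Acta1 changed by 0.36 (not past) and 0.93 (SE 0.32, adjusted p 0.0446), and the mature call was lost without any 1 of 2dpr replicates 1, 2, and 3 and 5dpr replicates 3 and 4, with values of 0.80, 0.84, 0.82, 0.91, and 0.77. Ckm changed by 0.39 and 0.65, not past the threshold unless mature 2dpr replicate 4 was left out (1.21), and Ttn by 0.54 and 0.23, neither past it. Of the called genes, 3 of 8 were fast and 5 slow in immature mice, and 9 fast, 7 slow, and 8 shared in mature mice.

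**Figure D3:**
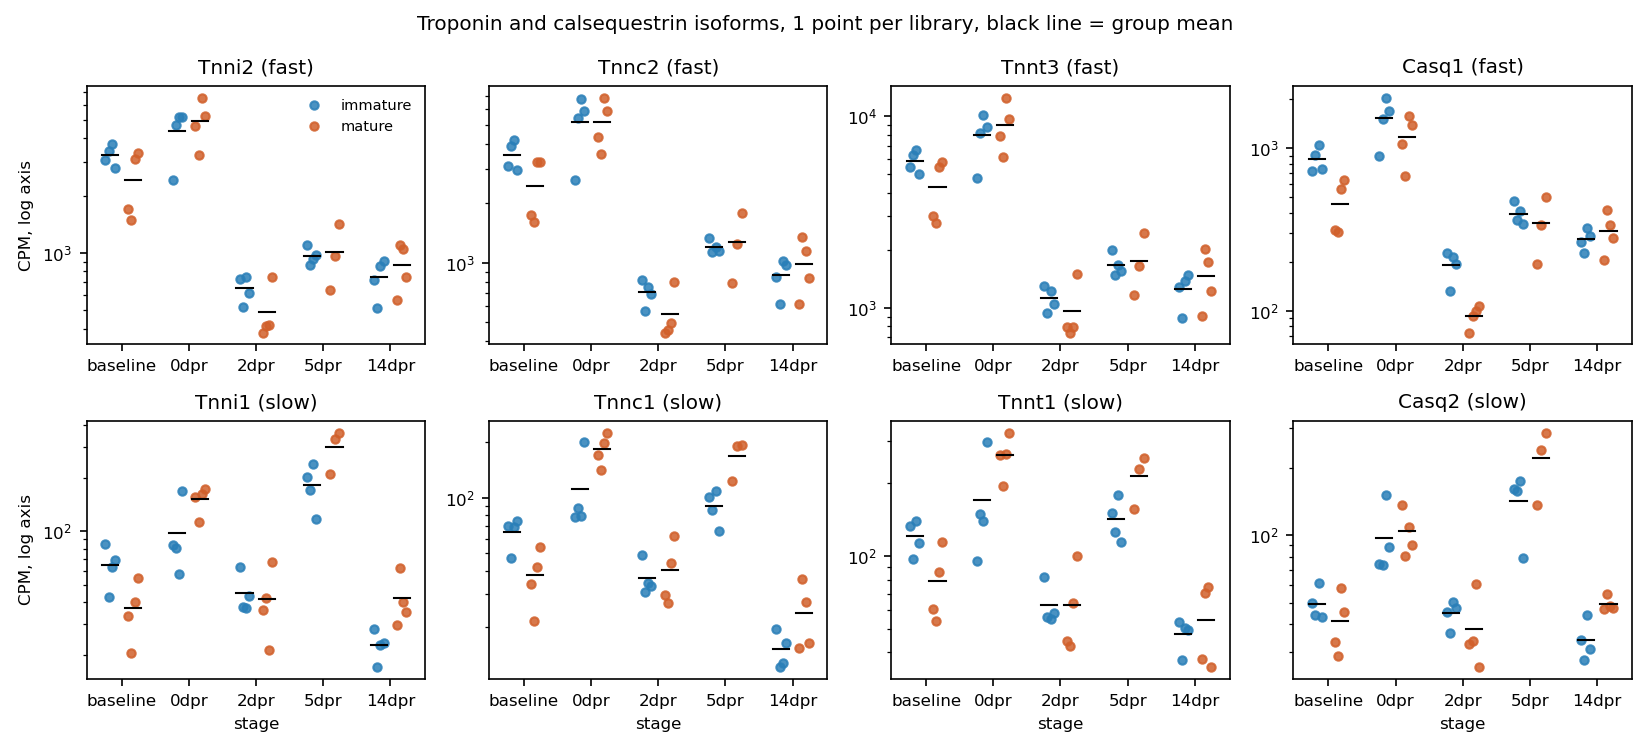
CPM on log axes of the fast (top) and slow (bottom) genes of 3 troponins and of calsequestrin, by stage, with 1 point per library and a black line at each group mean. The slow genes at 5dpr lie above 14dpr in every library, from 118 CPM or more against at most 62.5 for Tnni1, while the fast genes of the 2 stages overlap in mature mice.

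Between 2 and 5dpr the markers moved as well, and their part in the changes of the called genes was not tested. Of 7 leukocyte markers, 3 fell in immature, and 4 fell in mature mice; of 6 matrix markers, 4 rose in immature, and 5 rose in mature mice. Of 6 bone markers, 1 rose in immature (0 without 2dpr r1, r2 or r3 or 5dpr r4, 2 without 2dpr r4 or 5dpr r2), and 0 passed in mature mice (1 unadjusted, 0 by DESeq2, 1 without 2dpr r3). Of 3 cartilage markers, 1 rose in immature, and 0 passed in mature mice (0 unadjusted, 0 by DESeq2); of 4 fat markers, 0 passed in immature (0 unadjusted, 0 by DESeq2), and 1 rose in mature mice (0 without 2dpr r1, r2 or r4 or 5dpr r1 or r3). Of 6 smooth muscle markers, 1 rose in immature (0 without 2dpr r2 or r3 or 5dpr r4), and 4 rose in mature mice. No call at either age was made by edgeR among cardiac markers (1 and 1 unadjusted, 0 and 0 by DESeq2, immature 1 without 2dpr r3) and erythroid and endothelial markers (0 unadjusted, 0 by DESeq2).

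From 5 to 14dpr 7 of the 11 slow genes fell at each age. They were Tnni1, Tnnc1, Tnnt1, and Casq2, which the plot of troponin and calsequestrin levels shows, Mybpc1 and Myoz2, and Atp2a2 in immature and Myl2 in mature mice. In immature mice 12 of the 39 genes fell, against 1.45% of all genes, and 0 rose by edgeR and DESeq2, against 1.73%. In mature mice 9 fell, against 2.23%, and 0 rose by edgeR, against 1.95%, with 1 by DESeq2. Pvalb rose without mature 14dpr replicate 1 (1.49) or 5dpr replicate 4 (1.87, against 1.25). Unadjusted p was under 0.05 for 22 and 18 genes, against 2965 and 3905 of all 21203. Medians of the 39 were -0.64 and -0.48 (-0.27 without mature 5dpr replicate 4), against -0.02 over all genes at both ages. Of the 12 and 9, 7 were slow at each age and the others shared. Without immature 14dpr replicate 2, 7 genes were called in immature mice, and in a fit of the compared libraries alone 21 were. Called under every alternative of the methods except the one added after seeing the data were Tnni1, Tnnc1, Tnnt1, Casq2, Myoz2, and Des at both ages, and Mybpc1 in immature mice.

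Tnni1 was 27.9, 17.0, 22.8, and 23.4 CPM at immature 14dpr and 29.4, 62.5, 40.1, and 35.0 at mature 14dpr, below all 5dpr libraries. It fell by 3.01 (SE 0.34, adjusted p 7.94e-07) and 2.85 (SE 0.35, adjusted p 1.51e-06) on the log2 scale. Tnnc1 was 100.1, 85.9, 109, and 65.5 CPM at immature 5dpr and 19.4, 12.1, 12.7, and 16.2 at 14dpr. It fell by 2.58 (adjusted p 3.88e-06) in immature and 2.82 (adjusted p 9.76e-07) in mature mice, with no overlap between stages. Casq2 changed by -2.06 and -2.16, and Tnnt1 by -1.58 and -1.97. The smallest decreases past the threshold were of Atp2a2 with -0.58 (SE 0.16, adjusted p 0.0392) and Ldb3 with -0.86 (SE 0.23, adjusted p 0.0278) in immature mice, and of Ldb3 with -0.86 (SE 0.24, adjusted p 0.034) and Mybpc1 with -0.92 (SE 0.27, adjusted p 0.0417) in mature mice. These 4 calls were lost without 1 library: Atp2a2 without any immature 14dpr library or without 5dpr replicate 2 or 4 (-0.46 to -0.63), Ldb3 without 14dpr replicate 1 or 2 or 5dpr replicate 2, 4, or 5 (-0.71 to -0.84), mature Ldb3 without 14dpr replicate 1 or 4 or 5dpr replicate 3 or 4 (-0.67 to -0.86), and mature Mybpc1 without 14dpr replicate 1, 3, or 4 or 5dpr replicate 3 or 4 (-0.61 to -0.96). The reference genes did not pass the threshold, with log2 fold changes from -1.26 (Myh7) to -0.17 (Ckm) in immature and from -0.85 (Myh7) to 0.46 (Myh4) in mature mice, though Myh7 passed it without immature 5dpr replicate 3 (-1.55), by DESeq2 (-1.26), and with only the compared libraries fitted (-1.25).

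From 5 to 14dpr the part of these markers in the decreases of the 12 and 9 called genes was not tested either. Of 6 bone markers, 3 rose at each age; of 6 matrix markers, 1 rose at each age. Of 3 cartilage markers, 0 passed in immature (1 unadjusted, 1 by DESeq2), and 2 rose in mature mice (0 without 5dpr r3 or r4, 1 without 14dpr r3). Of 4 fat markers, 0 passed in immature (0 unadjusted, 0 by DESeq2), and 2 fell in mature mice (0 without 14dpr r1, r3 or r4 or 5dpr r1). Of 6 smooth muscle markers, 2 fell in immature (1 without 14dpr r1, r2 or r4 or 5dpr r2, r3, r4 or r5), and 3 fell in mature mice (1 without 14dpr r3 or r4 or 5dpr r4). No call at either age was made by edgeR among endothelial markers (1 and 1 unadjusted, 0 and 1 by DESeq2) and leukocyte, erythroid, and cardiac markers (0 unadjusted, 0 by DESeq2).

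At 14dpr most of the contractile genes were below baseline. In immature mice 37 of the 39 were lower at 14dpr than at baseline, against 15.1% of all genes, and 0 were higher by edgeR and DESeq2, against 16.4%. In mature mice 30 were lower, against 16.4%, and 0 higher by both tools, against 17.1%. Unadjusted p was under 0.05 for 38 and 33 genes, against 8512 and 8769 of all 21203. Medians of the 39 were -2.05 and -1.13, against -0.04 and -0.03 over all genes. The 2 that did not pass in immature mice were Casq2 and Tpm3. Tpm3 was called higher without immature baseline replicate 6 (0.35, against 0.28) and without mature baseline replicate 3 (0.34, against 0.28), and under 3 and 1 other settings. The largest decreases were of slow light chains in immature mice, Myl2, the regulatory light chain, with -3.04 (SE 0.39, adjusted p 1.64e-07) and Myl3 with -2.96 (SE 0.51, adjusted p 2.1e-05), and of Tcap with -2.28 (SE 0.33, adjusted p 1.38e-06) and Myl2 with -2.26 (SE 0.38, adjusted p 1.34e-05) in mature mice. Myl2 was 246, 164, 272, and 228 CPM at immature baseline and 31.6, 21.6, 27.1, and 30.4 at 14dpr. In mature mice, values were 133, 109.6, 219, and 197 and 13.6, 56.3, 56.1, and 11.7. No 14dpr library reached the lowest baseline library, and replicates 1 and 4 of mature 14dpr were the low ones of their group. The smallest decreases past the threshold were of Atp2a2 (-0.63) and Myl1 (-1.27) in immature mice, and of Des (-0.78) and Actn2 (-0.85) in mature mice. The mature calls of Des and Actn2 were lost without baseline replicate 4 (-0.56 and -0.74), and that of Actn2 also without 14dpr replicate 4 (-0.67).

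Of the reference genes, Acta1 was 13952, 13197, 13924, and 8858 CPM at immature baseline and 3151, 2245, 3590.4, and 4020.0 at 14dpr, and it fell by 1.94 on the log2 scale. Values in mature libraries were 5721, 5297, 8501, and 12218 and 2599.8, 4962, 4811, and 2659, and it fell by 1.08. All 14dpr libraries lay below all baseline libraries. Decreases were 2.05 and 1.44 for Ckm, 2.40 and 1.33 for Ttn, 1.74 and 1.07 for Myh1, 2.30 and 1.77 for Myh2, 2.35 and 1.58 for Myh4, and 2.59 and 1.02 for Myh7. The adjusted p was at most 3.3e-05 in immature and at most 0.0409 in mature mice. The mature Myh7 call was lost without 14dpr replicate 1 or 4 (-0.82 and -0.81) or baseline replicate 3 or 4 (-0.96 and -0.75).

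Markers at 14dpr differed from baseline too, and their part in the lower levels of the 37 and 30 called genes was not tested. All 6 erythroid markers were lower at each age; all 3 cartilage markers were higher at each age; all 6 matrix markers were higher at each age; of 3 endothelial markers, 2 were higher at each age. Of 7 leukocyte markers, 4 were higher and 2 were lower in immature (3 without 14dpr r3), and 2 were higher and 2 were lower in mature mice. Of 6 bone markers, 2 were higher in immature (0 without baseline r6 or 14dpr r2 or r4, 1 without baseline r2, r3 or r4), and 1 was lower in mature mice. Of 4 fat markers, 4 were lower in immature (2 without baseline r2 or r3 or 14dpr r2 or r3), and 4 were lower in mature mice. Of 6 smooth muscle markers, 1 was higher and 1 was lower in immature (1 without 14dpr r3), and 2 were higher and 1 was lower in mature mice. Of 5 cardiac markers, 1 was lower in immature (2 without baseline r6), and 1 was lower in mature mice (0 without baseline r2 or r3 or 14dpr r1, r2 or r4).

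Fast and slow isoforms of the same protein were then set against each other within each library, as the log2 ratio of fast to slow CPM in 10 pairs. The scaling of libraries cancels in this ratio, apart from the prior count of 2 in the log2 CPM. Changes from 0 to 2dpr and from baseline to 14dpr were tested at each age by exact two-sided permutation tests, 40 in all, with Benjamini-Hochberg adjustment. The smallest p that 4 against 4 libraries allow is 0.0286, which adjusted to 0.0457 here, so a pair passed only when its libraries did not overlap. The adjusted p also depends on the other pairs, and at least 23 of the 40 tests had to reach that p for any to pass, which 25 did.

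The ratio of the calcium pumps, Atp2a1 over Atp2a2, was 4.08, 4.27, 4.55, and 3.87 at immature 0dpr and 1.89, 0.98, 1.74, and 1.63 at 2dpr. Mature libraries had 3.87, 3.80, 4.80, and 3.86 and 0.99, 1.09, 0.99, and 1.72. Every 2dpr library was below every 0dpr library at each age, with mean differences of -2.63 and -2.88 (exact permutation p 0.0286, adjusted 0.0457). At both ages 6 pairs passed, all lower at 2dpr, and the others were Casq1 over Casq2 (-1.91 and -2.12), Tnni2 over Tnni1 (-1.66 and -1.38), Tnnt3 over Tnnt1 (-1.45 and -1.14), Tnnc2 over Tnnc1 (-1.31 and -1.01), and Myoz1 over Myoz2 (-1.01 and -1.34). The 4 pairs of the thick filament did not pass. Differences were -1.26 for Myh4 over Myh7 and -0.45 for Mybpc2 over Mybpc1 in immature mice, 0.49 (0.31 without immature 2dpr replicate 3) and 0.78 for Mylpf over Myl2, and 1.08 (0.32 without mature 2dpr replicate 3) for Myl1 over Myl3 in mature mice. The other 3 turned direction without 1 library and are not given.

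**Figure D4:**
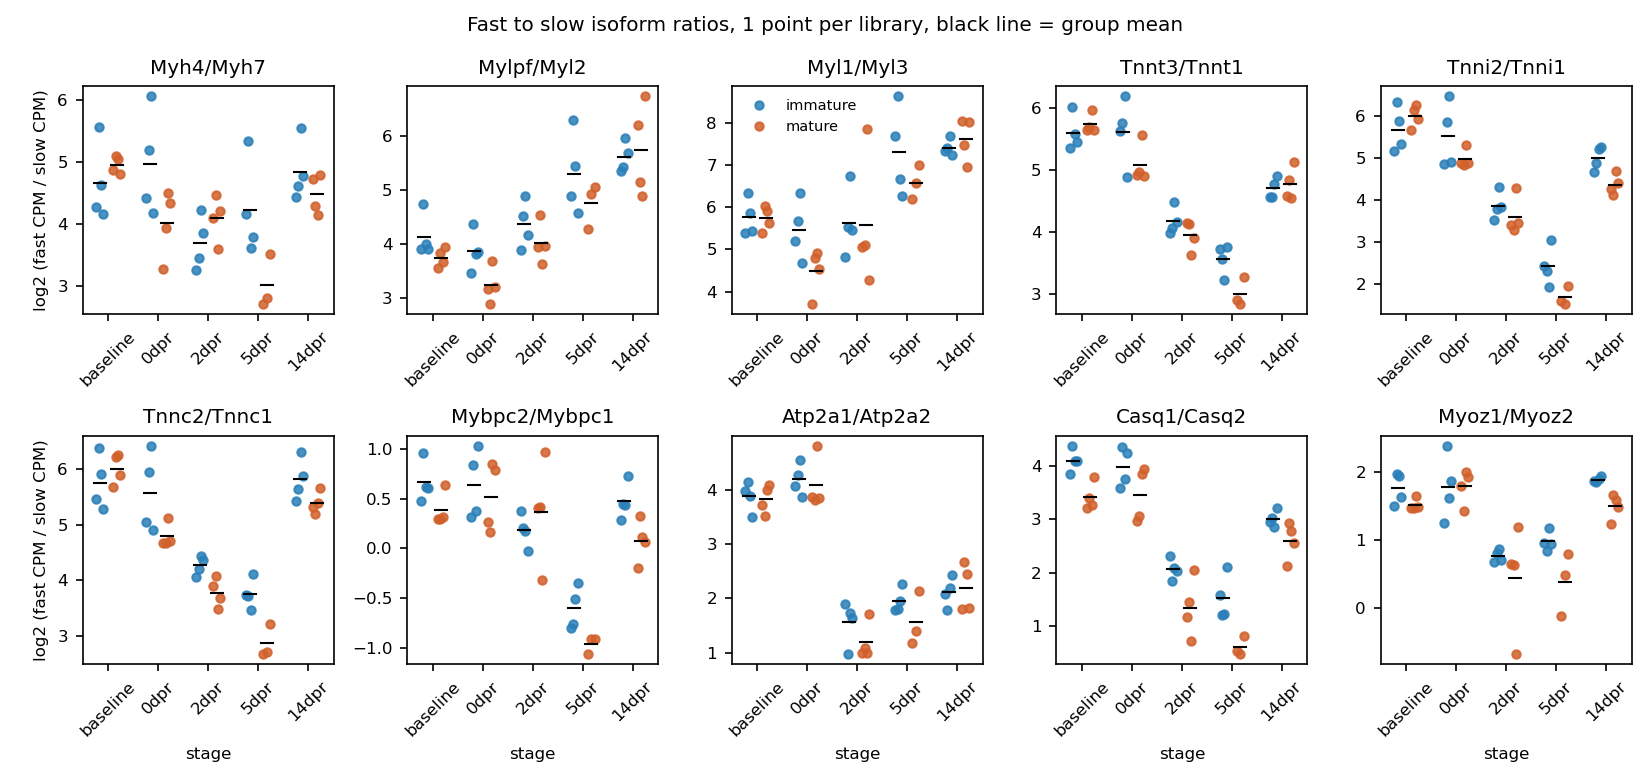
Log2 ratio of fast to slow CPM in 10 isoform pairs by stage, with 1 point per library and a black line at each group mean. Ratios of the 3 troponin pairs and of Casq1 over Casq2 have their lowest group mean at 5dpr at both ages, and those of Mylpf over Myl2 are highest at 14dpr.

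At 14dpr against baseline, light chain ratios were higher and troponin T ratios lower, as the plot of isoform ratios shows. Mylpf over Myl2 was 3.90, 4.74, 4.01, and 3.90 at immature baseline and 5.35, 5.43, 5.96, and 5.68 at 14dpr. Mature values were 3.55, 3.83, 3.66, and 3.94 and 6.20, 5.14, 4.90, and 6.73. Every 14dpr library was higher, by a mean of 1.47 and 1.99, and Myl1 over Myl3 was higher by 1.65 and 1.88, all 4 with exact permutation p 0.0286 and adjusted p 0.0457. Past the threshold and lower were Tnnt3 over Tnnt1 (-0.90 and -0.97), Atp2a1 over Atp2a2 (-1.75 and -1.64), and Casq1 over Casq2 (-1.09 and -0.82) at both ages. In mature mice Tnni2 over Tnni1 (-1.64), Tnnc2 over Tnnc1 (-0.62), and Myh4 over Myh7 (-0.47) were lower too. In immature mice these 3 did not pass, Tnni2 over Tnni1 with -0.67, and the other 2 turned direction without 1 library. Whether the ages differ in these changes was not tested. Mybpc2 over Mybpc1 (-0.19, or -0.09 without immature baseline replicate 3, and -0.31) and Myoz1 over Myoz2 did not pass at either age.

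Changes through 5dpr are given without a test. Tnni2 over Tnni1 was 3.52, 3.79, 4.32, and 3.84 at immature 2dpr, 2.43, 2.33, 1.95, and 3.05 at 5dpr, and 4.68, 4.89, 5.22, and 5.26 at 14dpr. The mature libraries gave 3.41, 3.29, 4.29, and 3.46, 1.60, 1.54, and 1.97, and 4.27, 4.14, 4.70, and 4.41. The 5dpr libraries were below all of 2dpr and all of 14dpr at both ages. From 2 to 5dpr the mean ratio was lower in 5 of the 10 pairs in immature and in 7 in mature mice. Both light chain pairs were higher at both ages, Mylpf over Myl2 by 0.94 and 0.73 and Myl1 over Myl3 by 1.68 and 1.02. From 5 to 14dpr all 10 pairs had a higher mean at both ages, except that Myl1 over Myl3 did not without immature 5dpr replicate 4 or 5 (-0.11 and -0.25).

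Myosin heavy chain genes define fibre types, and the share of each was taken per kilobase among 6 skeletal ones, the 4 of the list together with embryonic Myh3 and neonatal Myh8. Myh4 held a mean of 57.7% at immature and 51.8% at mature baseline, and Myh7 1.66% and 1.17%. At 5dpr Myh4 held means of 39.7% (n = 4) in immature and 27.7% (n = 3) in mature libraries. All 5dpr libraries lay below all baseline libraries of their age. At 14dpr its means were 49.4% and 44.9%. Myh1 held means between 23.9% and 36.6% in the 10 groups, Myh2 between 11.5% and 18.9%, and Myh7 between 1.17% and 2.83%.

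Embryonic and neonatal myosins took a larger share at 5dpr. Myh3, the embryonic heavy chain, held means of 9.09% in immature and 16.2% in mature mice at 5dpr, with means of 0.0587% and 0.0791% at baseline and 0.738% and 1.30% at 14dpr. Myh8, the neonatal heavy chain, held means of 5.06% and 4.69% at 5dpr. Its share depends on the length used, 11.8 kb of merged exons against 6.06 kb for Myh3. Not divided by length, mean 5dpr levels were 738 and 611 CPM for Myh8 and 677 and 1007 for Myh3 in immature and mature mice. Levels of Myh3 were 49.8, 37.0, 59.0, and 87.9 CPM at immature 2dpr and 722, 802, 903, and 281 at 5dpr. In mature mice, values were 12.6, 33.5, 6.88, and 13.5 and 563, 1069, and 1391. It rose by 3.53 (SE 0.42, adjusted p 7.33e-07) and 5.92 (SE 0.48, adjusted p 1.04e-10), and the lowest 5dpr library was immature replicate 5. Myh8 rose by 6.76 and 7.24.

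**Figure D5:**
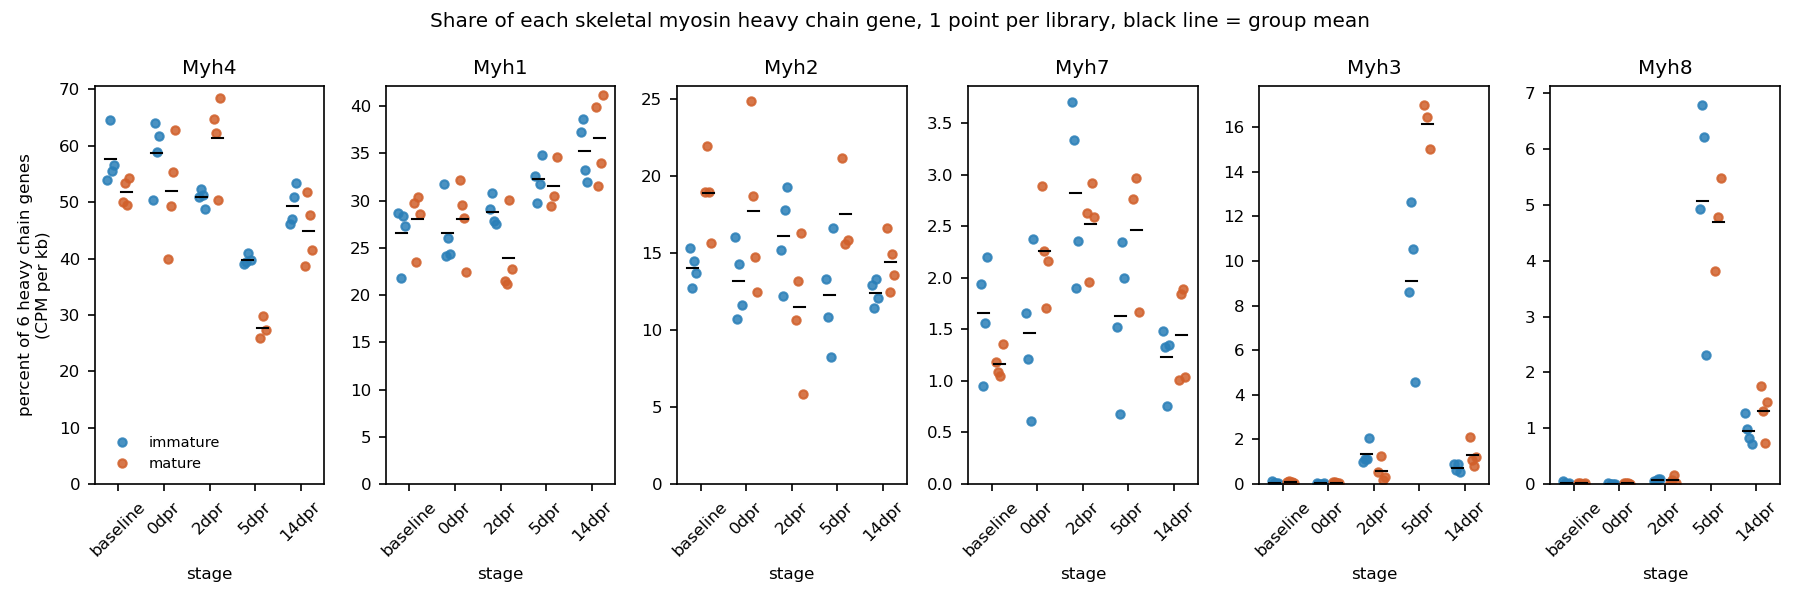
Percent of each of 6 skeletal myosin heavy chain genes, per kb, by stage, with 1 point per library and a black line at each group mean. Myh3 and Myh8 are near 0 at baseline and 0dpr and highest at 5dpr, where Myh4 has its lowest means of 39.7% and 27.7%.

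The plot of myosin shares sets these 2 developmental genes beside the adult ones, and the developmental isoforms are given together here. Of the 7 listed, 5 rose in immature and 7 in mature mice from 2 to 5dpr, against 4.37% and 8.16% of all genes. Actc1, the fetal and cardiac actin, rose by 3.65 and 5.22, and the smallest increases past the threshold were of Tnnt2 (2.03) and Myl4 (2.89) in immature mice and of Mybph (1.21) in mature mice. From 5 to 14dpr 6 and 7 fell, against 1.45% and 2.23% of all genes, with Myh3 at -4.39 and -3.94. From 0 to 2dpr 3 increased and 1 decreased in immature mice, with 2 increased in mature mice. Over all genes, 21.8% increased and 22.2% decreased in immature mice, and 22.7% increased in mature mice. At 14dpr against baseline 4 were higher and 1 lower in immature and 5 higher in mature mice. Over all genes, 16.4% were higher and 15.1% lower in immature mice, and 17.1% higher in mature mice. Over all genes, 5.98% rose and 4.66% fell from baseline to 0dpr in immature mice, and 11.9% rose in mature mice. EdgeR called 0 of the 7 in immature mice, with 1 unadjusted p under 0.05 and 0 called by DESeq2, and 2 rose in mature mice. That 2 became 0 without mature baseline replicate 1 or 2 or 0dpr replicate 3, and 1 without baseline replicate 3 or 0dpr replicate 4.

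Of 7 myogenic factors and fusion genes, 4 increased and 1 decreased in immature and 3 increased in mature mice from 0 to 2dpr. The shares of all genes were 21.8%, 22.2%, and 22.7%. From 2 to 5dpr 2 increased and 1 decreased in immature and 6 increased in mature mice, against 4.37%, 3.67%, and 8.16%. From 5 to 14dpr 6 and 7 fell, against 1.45% and 2.23%. From baseline to 0dpr 1 rose in immature and 3 in mature mice, against 5.98% and 11.9% of all genes. The 3 became 1 without mature baseline replicate 1 or 2 or 0dpr replicate 4. At 14dpr against baseline 3 were higher and 2 lower in immature mice, with 3 called in total without baseline replicate 3 or 14dpr replicate 1. In mature mice 3 were higher and 1 lower. Over all genes, 16.4% were higher and 15.1% lower in immature mice, and 17.1% higher and 16.4% lower in mature mice. Myog, the factor of terminal myoblast differentiation, rose by 2.53 and 3.28 from 0 to 2dpr, while 38 of the 39 contractile genes fell.

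Immature and mature mice were compared at each stage, since age is the question of the series. At baseline 1 of the 39 genes was higher in immature mice, against 0.585% of all genes called in either direction. An unadjusted p under 0.05 was found for 17 of the 39, against 2482 of all 21203. The called gene was Atp2a2, with 430.0, 401, 483, and 495 CPM in immature and 229.7, 268, 321, and 326 in mature libraries. The ages did not overlap, and the log2 fold change was 0.66 (SE 0.16, adjusted p 0.0466). The median over the 39 was 0.54, with 38 positive, against -0.000259 over all genes. The call was lost without any 1 baseline library except mature replicate 4, with values from 0.57 to 0.72, and without mature replicate 4 a total of 4 genes were called, while DESeq2 called 3 and a fit of the compared libraries alone 3. With RLE factors, library totals, no filter, or a replicate block 0 were called. Mature replicates 1 and 2 were the low ones, and without both, the median was 0.15 and 0 genes were called, with 1 at an unadjusted p under 0.05. Summed matrix markers stood apart in the same 2 libraries, at 20544 and 20906 CPM against 10372 and 13314 in mature replicates 3 and 4. Their part in the low muscle levels was not tested.

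At 0dpr edgeR called 0 of the 39 genes between the ages, against 0.726% of all genes, with 5 at an unadjusted p under 0.05 and 0 by DESeq2, and 2 without immature 0dpr replicate 4. At 2dpr it called 0, against 0.627%, with 8 unadjusted and 2 by DESeq2. With library totals, no filter, and a replicate block it called 1, 1, and 2. Without immature 2dpr replicate 2, or without mature replicate 3 or 4, it called 1 gene each, and Myh2 passed without mature replicate 3 (1.32). At 5dpr it called 0, against 0%, with 5 unadjusted and 0 by DESeq2, and at 14dpr 0, against 0.00943%, with 6 unadjusted and 0 by DESeq2. Of all 21203 genes, 2278, 2812, 1081, and 968 had an unadjusted p under 0.05 at 0, 2, 5, and 14dpr. Medians of the 39 at these 4 stages moved by over 1.5 times without 1 library and are not given. Myh2 at 2dpr, 882, 465, 1111, and 965 CPM in immature and 296, 412, 731, and 319 in mature libraries, overlapped in mature replicate 3, with a log2 fold change of 0.96 (SE 0.30, adjusted p 0.131). Reference genes at the 5 stages ranged from -0.70 (Myh7 at 0dpr) to 0.96 (Myh2 at 2dpr), none past the threshold.

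Whether the stage changes differed between the ages was tested as an interaction, the immature change minus the mature one. EdgeR called 0 of the 39 genes for 0dpr against baseline, against 0.0141% of all genes, 0 for 2dpr against 0dpr, against 0.0613%, 0 for 5dpr against 2dpr and 0 for 14dpr against 5dpr, against 0% each, and 0 for 14dpr against baseline, against 0.0472%. At an unadjusted p under 0.05 there were 14, 3, 7, 1, and 23 of the 39, against 1712, 2382, 1714, 901, and 1694 of all 21203 genes. DESeq2 called 1, 1, 0, 0, and 1 of the 39. The median was -0.66 for 0dpr against baseline, with all 39 negative (-0.43 without mature 0dpr replicate 3), and -0.83 for 14dpr against baseline. Without mature baseline replicates 1 and 2, an alternative chosen after seeing the data, these medians were -0.27, with 37 negative, and -0.47, with 3 and 5 genes at an unadjusted p under 0.05 and 0 called. The other 3 medians moved by over 1.5 times without 1 library and are not given. Without immature 0dpr replicate 4 or mature 0dpr replicate 2, 2 and 1 genes were called for 0dpr against baseline. Without mature 2dpr replicate 4, 1 was called for 2dpr against 0dpr, and without mature baseline replicate 4, 1 for 14dpr against baseline, where a fit of the compared libraries alone called 3. For the 10 isoform ratios, the 50 exact permutation tests between the ages could pass after adjustment only if at least 29 of them reached the smallest possible p of 0.0286. That p was reached by 5, so the ratios are given here as values. At 5dpr all 10 mean ratios were higher in immature mice, with a median difference of 0.66, and 3 had an unadjusted exact permutation p under 0.05. At baseline, 0dpr, 2dpr, and 14dpr, 6, 9, 8, and 6 of the 10 were higher in immature mice, and 1, 0, 0, and 1 had such a p. These tests took libraries as unpaired. Within the 4 replicate numbers at 0dpr, the ratios Mylpf over Myl2, Myl1 over Myl3, and Tnnc2 over Tnnc1 were all higher in immature mice, and the other 7 pairs did not keep 1 direction. No paired test was run.

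The developmental and regulatory lists gave single calls between the ages at 2dpr, where 0.627% of all genes were called. Myh3 was 49.8, 37.0, 59.0, and 87.9 CPM in immature and 12.6, 33.5, 6.88, and 13.5 in mature 2dpr libraries, all immature ones higher, with a log2 fold change of 1.81 (SE 0.41, adjusted p 0.0258). The call was lost without immature 2dpr replicate 4 or mature 2dpr replicate 1, 3, or 4. Myf6, a myogenic factor of mature fibres, differed by -1.14, a call lost without any 1 2dpr library except mature replicates 1 and 2. Both calls were lost in a fit of the compared libraries alone.

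To see whether the list stands apart from other muscle genes, 40 further skeletal muscle genes were taken, of which 39 were in the table and Mybphl was not. At 0dpr against baseline 8 rose in immature and 36 in mature mice, against 5.98% and 11.9% of all genes. Without mature baseline replicates 1 and 2, an alternative chosen after seeing the data, the mature 36 became 8. From 0 to 2dpr 36 and 33 fell, against 22.2% and 24.9% of all genes. From 2 to 5dpr 7 increased and 1 decreased in immature and 16 increased and 2 decreased in mature mice. The shares of all genes were 4.37%, 3.67%, 8.16%, and 6.38%. From 5 to 14dpr 18 and 17 fell, against 1.45% and 2.23%. Over all genes, 15.1% were lower and 16.4% higher at 14dpr than at baseline in immature, and 16.4% lower and 17.1% higher in mature mice. Of the 39 further genes, 38 were lower and 1 higher in immature, and 33 lower and 1 higher in mature mice. Sln (sarcolipin) was the gene higher at 14dpr, by 2.04 and 2.28. Between the ages 4 were called at 2dpr (Sln, Mb, Cryab, and Trim63), against 0.627% of all genes. The 4 became 3, 3, 2, and 1 without immature replicates 1 to 4. They became 3, 3, and 2 without mature replicates 1, 2, and 4, and 0 in a fit of the compared libraries alone. Without immature 14dpr replicate 2, 10 fell from 5 to 14dpr in immature mice, and without mature 5dpr replicate 4, 10 fell in mature mice. In immature mice the 8 called at 0dpr became 1, 2, 4, and 0 without baseline replicates 2, 3, 4, and 6, and 5, 0, and 5 without 0dpr replicates 2, 3, and 4, and the 8 called from 2 to 5dpr became 5, 2, and 4 without 2dpr replicates 1, 2, and 4, and 5 and 3 without 5dpr replicates 2 and 4.

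Across all 39 libraries, each gene was compared with the median of the other 38, as a description over libraries that share groups and stages. Pearson's r on log2 CPM was highest for Cacna1s (0.992, n = 39), Myom1 (0.984), and Tnnt3 (0.983), and above 0.76 for 33 genes. It was 0.707 for Tnnt1, 0.650 for Tnnc1, 0.612 for Atp2a2, 0.386 for Tnni1, 0.333 for Casq2, and -0.511 for Tpm3. The 6 genes below 0.76 were all slow ones, and the other 5 slow genes lay between 0.901 (Myl3) and 0.940 (Myl2). These values include the differences between stages. Within groups, after the mean of each group was taken off, Tpm3 (0.0109), Atp2a2 (0.464), Casq2 (0.522), and Tnni1 (0.575) were still among the 5 lowest, with Myl3 (0.481), while Tnnt1 (0.789) and Tnnc1 (0.702) were above Myl2 (0.678), Myh7 (0.621), and Myh2 (0.593).

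In the GENCODE annotation of GRCm38 (M21), all 39 are protein coding genes and lie on 15 chromosomes. Chromosome 11 holds 4, and the adult fast myosins lie side by side there, Myh2, Myh1, and Myh4, all on the plus strand. These 3 are close paralogs, so reads that fit more than 1 of them cannot be assigned, and how the counting treated them is not stated. Exons of 18 of the 39 share bases with a gene on the opposite strand, as Tnnc2 with Ube2c, Atp2a1 with Rabep2, Myom1 with Myl12a, and Myh7 with Mhrt, and those of 0 with a gene on the same strand. Whether counting was by strand is not stated, so levels of these 18 could include reads of the other gene.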

How the data were processed

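Reads were mapped to GRCm38 and counted per gene with STAR 2.5.2a by the authors. The deposited counts are raw counts per gene, and the deposited signal is CPM scaled by TMM factors, which equals the CPM recomputed from the counts within a relative difference of 5e-15. The authors' filtered table was used, whose filter rule is not given. Of its 21204 entries, 1 that is not a mouse gene was left out (at most 0.00223% of a library's counts), and 21203 genes were tested.

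Counts were fitted in edgeR 4.0.16 (limma 3.58.1, R 4.3.3) with TMM factors and the quasi-likelihood test, all 39 libraries in 1 model with 1 coefficient per group. Comparisons were the ages at each stage, 5 stage comparisons at each age, and their 5 interactions, with Benjamini-Hochberg adjustment over all genes and a threshold of 0.05. Positive values are higher at the later stage or in immature mice. Log2 CPM used a prior count of 2. Fast to slow ratios in 10 pairs were compared by exact two-sided permutation tests, in families of 50 (ages) and 40 (stages). Replicate numbers were not used as pairs. At 0dpr between the ages, same-numbered replicates correlated (r from 0.109 to 0.207, mean 0.150, 4 pairs), and with replicate number as a block 0 of the 39 genes were called there. Alternatives were DESeq2 1.42.0, RLE factors, library totals, TMM without muscle genes, other filters, other prior counts, a replicate block, only the compared libraries, and each library left out in turn.

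The 39 genes and all lists were chosen with earlier results of these data known. Named in each comparison were the 2 genes with the largest and the 2 with the smallest change past the threshold, the members of the 10 pairs, and 7 reference genes (Acta1, Ckm, Ttn, Myh1, Myh2, Myh4, and Myh7). Other genes were named after their values were seen.

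Libraries were pooled, and sequencing runs are not assigned to samples, so run and group cannot be told apart. Levels in whole tissue follow both its cell composition and RNA per cell. Counts per gene do not separate transcripts of 1 gene. A p that misses the threshold does not show that values were equal.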

Additional observations from a re-analysis of the deposited data

Results flagged for a closer look

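In a group of 4 libraries, a value stood out when its gap to the nearest other library was above Dixon's critical value, as a part of the group's range. Of 288 such groups tested, 18 had one (6.25%), and chance gives about 1 in 20. For single genes the values are CPM. Acta1 in mature 2dpr was highest in replicate 4, at 5357 against 2237 to 2508 (gap 0.913). Myh7 in immature 2dpr was highest in replicate 1, at 260.2 against 142 to 154 (gap 0.905). Tnnc1 in immature 0dpr was highest in replicate 4, at 199 against 78.9 to 88.1 (gap 0.923). Tnnt1 in immature 2dpr was highest in replicate 1, at 82.3 against 54.9 to 58.3 (gap 0.877). Tpm3 in immature 14dpr was highest in replicate 1, at 302 against 265 to 269.8 (gap 0.869). Myh8 in immature baseline was highest in replicate 2, at 20.7 against 3.74 to 5.84 (gap 0.876). Myog in mature baseline was highest in replicate 4, at 6.51 against 2.20 to 2.56 (gap 0.916). Acta1 in immature baseline was lowest in replicate 6, at 8858 against 13197 to 13952 (gap 0.852). Tpm3 in immature 5dpr was lowest in replicate 5, at 312 against 326 to 328 (gap 0.844).

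For isoform pairs the values are log2 ratios of fast to slow CPM. Mylpf over Myl2 in immature baseline was highest in replicate 3, at 4.74 against 3.90 to 4.01 (gap 0.871). Tnnt3 over Tnnt1 in mature baseline was highest in replicate 3, at 5.98 against 5.64 to 5.69 (gap 0.853). Tnnt3 over Tnnt1 in mature 0dpr was highest in replicate 3, at 5.56 against 4.90 to 4.98 (gap 0.887). Tnni2 over Tnni1 in mature 0dpr was highest in replicate 3, at 5.32 against 4.85 to 4.90 (gap 0.895). Tnnc2 over Tnnc1 in mature 0dpr was highest in replicate 3, at 5.11 against 4.66 to 4.70 (gap 0.917). Mybpc2 over Mybpc1 in mature baseline was highest in replicate 4, at 0.64 against 0.29 to 0.31 (gap 0.941). Atp2a1 over Atp2a2 in mature 0dpr was highest in replicate 3, at 4.80 against 3.80 to 3.87 (gap 0.938). Atp2a1 over Atp2a2 in mature 2dpr was highest in replicate 4, at 1.72 against 0.99 to 1.09 (gap 0.865). Myoz1 over Myoz2 in mature baseline was highest in replicate 3, at 1.64 against 1.47 to 1.48 (gap 0.93). 

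A difference between the ages in a stage change was tested as an interaction, and 3 genes of the lists passed in edgeR. From 0 to 2dpr, Sln differed by 2.78 (adjusted p 0.0405), with changes of 0.17 in immature and -2.61 in mature mice, and Myh3 by 2.98 (adjusted p 0.0405), with 2.80 and -0.18. Both calls were lost in a fit of the compared libraries alone, that of Sln with replicate number as a block too, and both without any 1 of several libraries, by group and replicate for Sln immature 0dpr 1, immature 2dpr 1 and 3, mature 0dpr 3 and 4, mature 2dpr 1, 2, and 3 (2.53 to 2.79), and for Myh3 immature 0dpr 1, 2, and 3, immature 2dpr 1, 3, and 4, mature 0dpr 1, 3, and 4, mature 2dpr 1 and 3 (2.72 to 3.10). At 14dpr against baseline, Col3a1, a fibrillar collagen of the matrix list, differed by -2.16 (adjusted p 6.4e-04), with a change of 4.66 in mature mice and a smaller one in immature mice. The cause of these values was not tested.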

How the results depend on the processing

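Counts of the 39 genes past the threshold that moved by over 1.5 times are given by setting, with the comparison in parentheses, and the cause of each change was not tested. With RLE size factors, it was 0 (ages at baseline). With library totals only, counts were 0 (ages at baseline), 1 (ages at 2dpr), and 1 (0dpr against baseline, immature). With no filter, counts were 0 (ages at baseline) and 1 (ages at 2dpr). With replicate number as a block, counts were 0 (ages at baseline), 2 (ages at 2dpr), and 2 (0dpr against baseline, immature). Without mature baseline replicates 1 and 2 (chosen after seeing the data), counts were 0 (ages at baseline) and 8 (0dpr against baseline, mature). By DESeq2, counts were 3 (ages at baseline), 2 (ages at 2dpr), 14 (0dpr against baseline, immature), 17 (5dpr against 2dpr, immature), 1 (interaction of 0dpr against baseline), 1 (interaction of 2dpr against 0dpr), and 1 (interaction of 14dpr against baseline). With only the compared libraries fitted, counts were 3 (ages at baseline), 0 (0dpr against baseline, immature), 21 (5dpr against 2dpr, immature), 21 (14dpr against 5dpr, immature), 13 (5dpr against 2dpr, mature), and 3 (interaction of 14dpr against baseline). Leaving out each library in turn gave 0 to 4 (ages at baseline), 0 to 2 (ages at 0dpr), 0 to 1 (ages at 2dpr), 0 to 6 (0dpr against baseline, immature), 7 to 13 (14dpr against 5dpr, immature), 12 to 30 (5dpr against 2dpr, mature), 0 to 2 (interaction of 0dpr against baseline), 0 to 1 (interaction of 2dpr against 0dpr), and 0 to 1 (interaction of 14dpr against baseline).

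For other skeletal muscle genes: With only the compared libraries fitted, counts were 2 (ages at baseline), 0 (ages at 2dpr), 0 (0dpr against baseline, immature), 19 (5dpr against 2dpr, immature), 29 (14dpr against 5dpr, immature), 0 (interaction of 2dpr against 0dpr), and 1 (interaction of 14dpr against baseline). By DESeq2, counts were 1 (ages at 0dpr), 13 (0dpr against baseline, immature), 2 (interaction of 2dpr against 0dpr), and 1 (interaction of 14dpr against baseline). With library totals only, it was 2 (0dpr against baseline, immature). With TMM factors computed without muscle genes, it was 4 (0dpr against baseline, immature). With replicate number as a block, counts were 2 (0dpr against baseline, immature) and 0 (interaction of 2dpr against 0dpr). Without mature baseline replicates 1 and 2 (chosen after seeing the data), it was 8 (0dpr against baseline, mature). Leaving out each library in turn gave 0 to 1 (ages at baseline), 1 to 5 (ages at 2dpr), 0 to 7 (0dpr against baseline, immature), 2 to 7 (5dpr against 2dpr, immature), 10 to 19 (14dpr against 5dpr, immature), 10 to 19 (14dpr against 5dpr, mature), 0 to 1 (interaction of 2dpr against 0dpr), and 0 to 1 (interaction of 14dpr against baseline).

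For developmental isoforms: With no filter, it was 1 (ages at baseline). With replicate number as a block, counts were 1 (ages at baseline), 1 (ages at 0dpr), and 1 (interaction of 14dpr against baseline). By DESeq2, counts were 1 (ages at baseline), 1 (interaction of 5dpr against 2dpr), and 1 (interaction of 14dpr against baseline). With only the compared libraries fitted, counts were 1 (ages at baseline), 0 (ages at 2dpr), 0 (interaction of 2dpr against 0dpr), and 1 (interaction of 14dpr against baseline). With library totals only, it was 0 (0dpr against baseline, mature). Without mature baseline replicates 1 and 2 (chosen after seeing the data), it was 0 (0dpr against baseline, mature). Leaving out each library in turn gave 0 to 1 (ages at baseline), 0 to 1 (ages at 2dpr), 0 to 3 (0dpr against baseline, mature), 0 to 1 (interaction of 2dpr against 0dpr), and 0 to 1 (interaction of 5dpr against 2dpr).

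For myogenic and fusion genes: With no filter, it was 2 (ages at 2dpr). By DESeq2, counts were 2 (ages at 2dpr), 2 (0dpr against baseline, immature), 5 (5dpr against 2dpr, immature), and 1 (interaction of 5dpr against 2dpr). With only the compared libraries fitted, counts were 0 (ages at 2dpr), 0 (0dpr against baseline, immature), 5 (5dpr against 2dpr, immature), and 3 (5dpr against 2dpr, mature). With replicate number as a block, it was 0 (0dpr against baseline, immature). Without mature baseline replicates 1 and 2 (chosen after seeing the data), it was 1 (0dpr against baseline, mature). Leaving out each library in turn gave 0 to 1 (ages at baseline), 0 to 2 (ages at 2dpr), 3 to 5 (14dpr against baseline, immature), and 1 to 4 (0dpr against baseline, mature).

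Of the values of these counts, summed levels, medians, and pair counts under all alternatives but the 2 chosen after seeing the data, 1513 stayed within 1.5 times or 1 SD and 146 moved, and 0 called results reversed. Of the values of single genes, 2879 kept their side of the threshold, 116 lost it, 21 gained it, and 85 without a call moved. Same-numbered replicates did not correlate in 14 of 15 comparisons, with a mean r of -0.0135 over 51 pairs (-0.158 to 0.207). With library totals the median of all genes shifted by -0.19 and -0.31 for 0dpr against baseline in immature and mature mice, by 0.25 and 0.26 for 2dpr against 0dpr, and by 0.11 for the interactions of 0dpr and of 14dpr against baseline, and relative to it the 39 genes had medians of 0.60, 1.30, -2.56, -2.87, -0.66, and -0.86. Without Tpm3 and Atp2a2 in the slow class, an alternative chosen after seeing the data, the ratio of summed fast to slow levels was 13.8 against 6.65 (immature 2dpr), 11.8 against 5.12 (mature 2dpr), 24.2 against 11.5 (immature 14dpr), and 20.03 against 10.6 (mature 14dpr).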
